A study of Mus musculus with 16 samples.

Results

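The insulin and insulin-like growth factor (IGF) signaling genes described here are 10 genes chosen by name: the ligand gene Igf2, the receptor genes Igf1r, Igf2r and Insr, the adaptor genes Irs1 and Irs2, the binding protein genes Igfbp1, Igfbp2 and Igfbp4, and Igf2bp1, which encodes an RNA-binding protein. All 10 were found among the 22392 genes of the deposited table. Each gene was represented by the transcript with the largest sum of counts over the 16 libraries. A mean of at least 10 counts over the 8 RNA-seq libraries was found for 8 of the 10 genes. For 7 of them the mean over the 8 Ribo-seq libraries was at least 10 as well, and translation efficiency was computed for these 7. Igf1r and Igfbp2 were under the floor of 10 counts in RNA-seq, and Igf2 was under it in Ribo-seq, so that their counts are given there without a test.

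The libraries came from Hepa1-6 cells, a mouse hepatoma line. WT cells were compared with 3 clones (KO1, KO2 and KO3) in which exon 5 of Eef1d, a gene for a subunit of the translation elongation factor complex EEF1B, was removed with CRISPR-Cas9 from both alleles. Each clone was grown from a single cell, KO1 and KO2 with the same pair of guide RNAs and KO3 with another pair. Every line had 2 replicates, and each lysate gave an RNA-seq library and a Ribo-seq library, in which the mRNA fragments covered by ribosomes (footprints) are sequenced. All lines were kept in the same serum-containing medium, and the labels name no insulin or IGF treatment. The 3 clones were compared with the same 2 WT replicates, and the methods describe no cloning of the WT line, so that within any clone the loss of exon 5 and the history of a single-cell clone cannot be told apart. The methods call the 2 Ribo-seq replicates biological, and neither they nor the labels say whether these were separate cultures, so that p-values measure only the spread between these samples.

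Insulin and the IGFs bind receptor tyrosine kinases at the cell surface. The insulin receptor phosphorylates the adaptors IRS1 and IRS2, which recruit phosphoinositide 3-kinase and so activate AKT, and AKT keeps FoxO transcription factors out of the nucleus. In liver, insulin lowers transcription of FoxO targets such as Igfbp1, while secreted IGF binding proteins hold IGFs in complexes and limit their access to receptors.

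RNA-seq libraries held from 10493029 to 12946815 counts with 1 transcript per gene, and Ribo-seq libraries held from 1138944 (KO1 replicate 2) to 4886757 (KO1 replicate 1). In RNA-seq, the Eef1d transcript with exon 5 had 116% and 116.2% of the count of the transcript without it in WT cells and from 89.8% to 92.6% in the 6 libraries of the clones, where reads of shared exons are counted on both. Among 15 hepatocyte markers, Alb, Afp, Apob, Fgb, Hnf4a, Foxa2 and Rbp4 were found in every line, while Ttr, Apoa1, Apoh, Serpina1a, Serpina1b, Fga and Ahsg had from 0 to 14 counts. The summed RNA level of the hepatocyte markers was from 2289.5 to 2402 counts per 1000000 (CPM) in WT cells, from 1259 to 1266 in KO1, from 1815 to 1914 in KO2 and from 3499 to 3686 in KO3. It therefore differed between lines along with the genes below, and its part in their differences was not tested. Markers of other cell types summed to between 83.2 and 144.6 CPM, of which Sox9 gave the most, and Adgre1, Lyve1, Ins1 and Gcg had 0 counts in every RNA-seq library. In such bulk libraries, fewer cells of a type and less RNA per cell cannot be told apart.

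In WT cells the members covered a wide range of levels. Per kilobase of counted coding sequence, the mean RNA level was 1870 CPM for Igfbp4, 209 for Igfbp1, 91.6 for Igf2bp1, 56.3 for Irs1, 13.9 for Insr, 13.1 for Irs2, 6.08 for Igf2 and 1.68 for Igf2r. No neighbours in this order overlapped between the 2 WT replicates. Igfbp4 RNA stood at percentile 99.0 of the 11415 genes above the floor and Igf2r RNA at percentile 7.18. For footprints, the order per kilobase was Igfbp4 (1674 CPM), Igfbp1 (541), Igf2bp1 (87.8), Irs1 (34.9), Irs2 (10.2), Insr (9.75) and Igf2r (0.655), and in this order only Irs2 and Insr overlapped between replicates. Per length, the binding protein genes Igfbp4 and Igfbp1 thus had the highest levels in both assays among the members above the floor, and Igf2r the lowest of these.

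**Figure D1:**
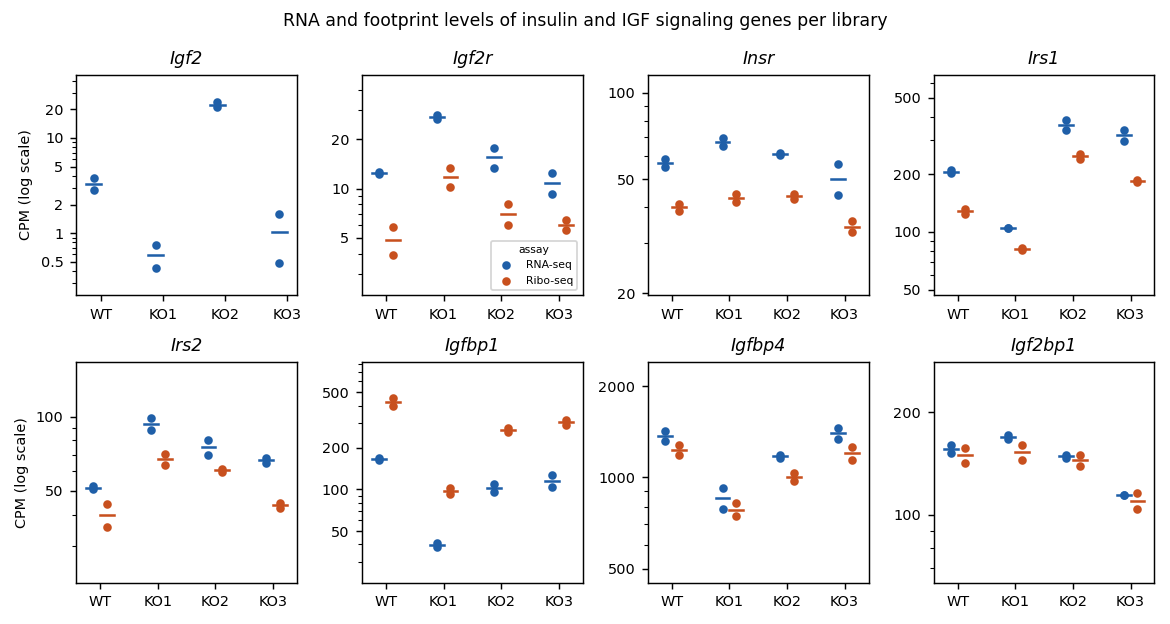
RNA and footprint levels of the 8 members above the RNA count floor in WT cells and the 3 exon 5 KO clones. Each point is 1 library, each short line the mean of 2 replicates, and the vertical axis shows CPM on a log scale that differs between panels; Igf2 footprints were under the floor and are not drawn. Igfbp1 was lower than WT in all 3 clones, whereas Igf2 and Irs1 moved in opposite directions in KO1 and KO2.

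The clones did not share a single pattern. Each clone was compared with WT cells by edgeR's quasi-likelihood test over all genes with enough counts, and a gene was called where the p-value after Benjamini-Hochberg adjustment was under 0.05. In KO1, the RNA of 7 of 8 members was called, with 3 higher and 4 lower, where 46.7% of all genes tested were called. In KO2, 5 of 8 were called, with 3 higher and 2 lower, against 20.4% of all genes. In KO3, 5 of 8 were called as well, with 2 higher and 3 lower, against 45.4% of all genes. A test of whether the 3 clones differed from each other in RNA called 8 of 8 members, and 74% of all genes. The median size of the RNA change of the members, regardless of sign, was 0.92 for KO1, 0.44 for KO2 and 0.41 for KO3 on the log2 scale, beside 0.26, 0.16 and 0.24 over all genes tested. The members were chosen with earlier results of these data known. The counts of calls and these sizes thus do not test whether the members moved more than other genes. Footprints gave 5 of 7 members in KO1 (26.9% of all genes called), 4 of 7 in KO2 (11.7%), 3 of 7 in KO3 (30.6%) and 7 of 7 for a difference between the clones (59.5%). Of these 7, DESeq2 did not call Igf2r (adjusted p = 0.148) and Insr (adjusted p = 0.262). Without WT replicate 1, Igfbp4 and Irs2 lost their footprint calls in KO2, at log2 changes of -0.23 and 0.45. Calls over all genes were fewer in that fit as well.

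**Figure D2:**
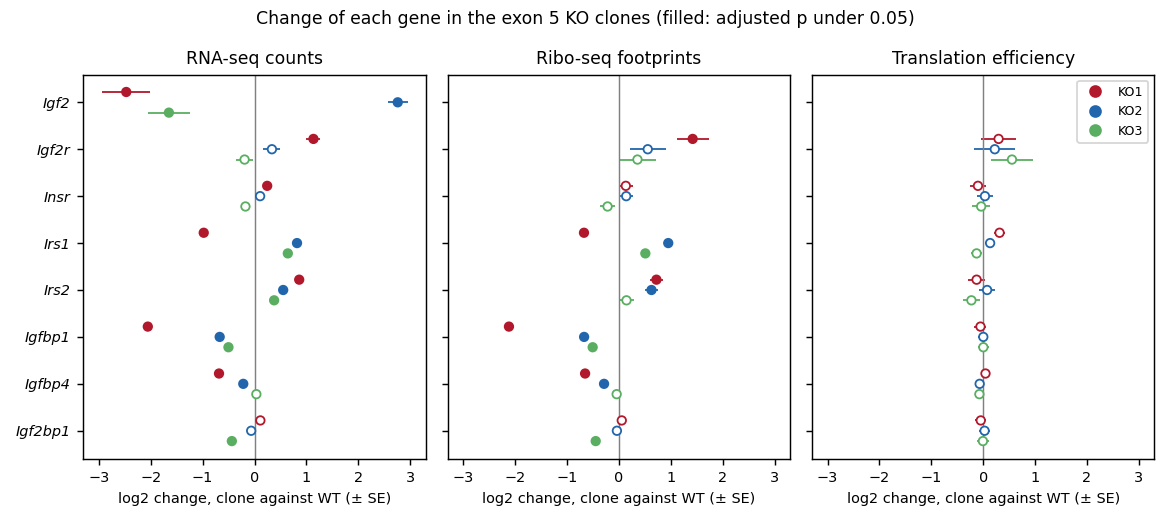
Log2 change of each member in each exon 5 KO clone against WT cells for RNA-seq counts, Ribo-seq footprints and translation efficiency, from edgeR. Points are estimates, bars are standard errors, and filled points have an adjusted p under 0.05. RNA and footprint changes lie on the same side for most members, and no translation efficiency change is filled.

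Igf2 encodes the growth factor IGF2, which is made in fetal liver from the paternal allele and is switched on again in many liver tumors. The transcript used was ENSMUST00000121128.7. The gene, over all its transcripts, covers chromosome 7 from 142650766 to 142666816 in GRCm38, on the minus strand. Its RNA level was 3.83 and 2.81 CPM in WT cells, 0.434 and 0.754 for KO1, 20.95 and 23.7 for KO2, and 1.58 and 0.489 for KO3, from 42 and 33, 5 and 8, 224 and 292, and 20 and 6 counts. Both KO2 libraries were above all other libraries, and those of KO1 and KO3 were below WT. Igf2 RNA rose 6.78-fold in KO2 (log2 change 2.76, standard error 0.192, edgeR adjusted p = 2.96e-10). It fell by 2.47 on the log2 scale in KO1 (standard error 0.461, edgeR adjusted p = 1.17e-05) and by 1.65 in KO3 (standard error 0.402, edgeR adjusted p = 0.000409). Between the clones, KO2 was above KO1 and above KO3, with log2 differences of -5.23 for KO1 against KO2 and 4.40 for KO2 against KO3, while KO1 and KO3 overlapped (log2 difference -0.83, edgeR adjusted p = 0.187). The KO3 result depended on 1 library: without KO3 replicate 2 the log2 change was -1.05 and its adjusted p was 0.0570, and without KO3 replicate 1 the log2 change was -2.72.

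Footprints on Igf2 were few, with counts of 2 and 8 in WT cells, 9 and 3 for KO1, 28 and 14 for KO2, and 2 and 4 for KO3. The KO2 counts were the highest of the 8, and the other lines overlapped. The gene Gm49394 lies on the same strand, from 142650769 to 142669942 on chromosome 7, and spans Igf2. The coding sequences of the 2 transcripts share 0 bases, since the coding exons of Gm49394 lie upstream of those of Igf2. It is not a member and was looked up after the Igf2 values were seen. Its RNA counts were 39 and 60 in WT cells, 0 and 6 for KO1, 348 and 519 for KO2, and 13 and 17 for KO3. Its footprint counts were 39 and 15 in WT cells, 1 and 0 for KO1, 262 and 190 for KO2, and 2 and 0 for KO3. Lines therefore stood in the same order for Gm49394 RNA as for Igf2 RNA, with KO2 highest and KO1 lowest, and Gm49394 RNA had a log2 change of -3.95 for KO1, 3.11 for KO2 and -1.84 for KO3. Unlike Igf2, Gm49394 had more than 100 footprints in each KO2 library. Whether reads from 1 precursor RNA reach both transcripts was not tested.

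**Figure D3:**
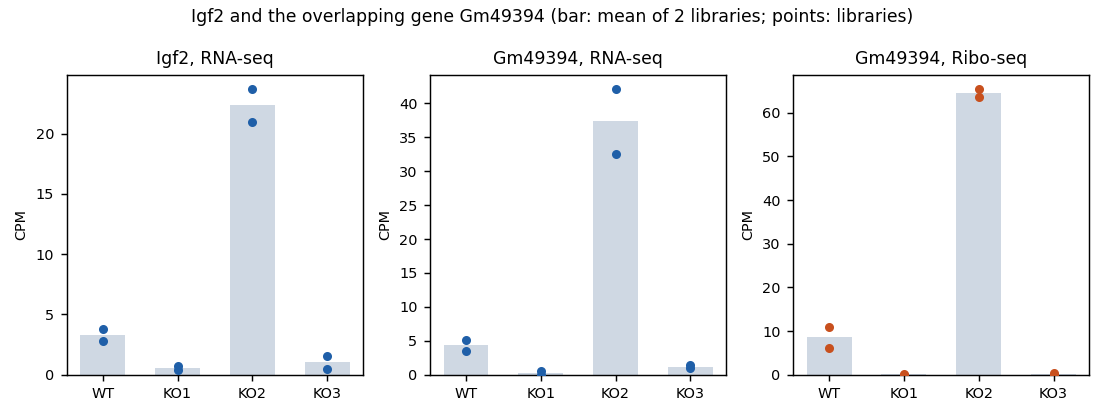
RNA level of Igf2, and RNA and footprint levels of the overlapping gene Gm49394, in CPM from an axis that starts at 0. Bars are the means of 2 libraries per line and points are the libraries. In all 3 panels the KO2 libraries stand above those of WT cells and of the other clones.

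The receptors moved less than the ligand. IGF2R, the cation-independent mannose phosphate receptor, takes up IGF2 for breakdown in lysosomes and does not signal through a kinase. Igf2r (ENSMUST00000024599.13, minus strand of chromosome 17, from 12682406 to 12769664) had an RNA level of 12.7 and 12.2 CPM in WT cells, 26.7 and 28.1 for KO1, 13.3 and 17.8 for KO2, and 12.4 and 9.20 for KO3. Both KO1 libraries were above all others. Igf2r RNA rose 2.20-fold in KO1 (log2 change 1.14, standard error 0.136, edgeR adjusted p = 5.47e-10), and the log2 change was 0.34 in KO2 (adjusted p = 0.160) and -0.19 in KO3 (adjusted p = 0.377). Without KO2 replicate 1, the log2 change of Igf2r RNA in KO2 was 0.52 with an adjusted p of 0.0184. Igf2r footprints were 3.93 and 5.79 CPM in WT cells, 13.4 and 10.2 for KO1, 6.00 and 8.03 for KO2, and 6.43 and 5.60 for KO3. They rose in KO1 (log2 change 1.42, standard error 0.309, edgeR adjusted p = 0.000325), from counts of 14 and 14 in WT cells and of 66 and 12 in KO1. That call rested on the deeper KO1 library, since without KO1 replicate 1 the log2 change was 1.12 with an adjusted p of 0.20997, and DESeq2 gave an adjusted p of 0.156.

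INSR is the receptor tyrosine kinase for insulin. Insr (ENSMUST00000091291.4, minus strand of chromosome 8, from 3122061 to 3279617) had an RNA level of 58.9 and 55.1 CPM in WT cells, 69.7 and 65.3 for KO1, 60.7 and 61.5 for KO2, and 44.0 and 56.4 for KO3. The lines lay close together, with KO1 above WT and KO3 overlapping with WT. Insr RNA rose in KO1 (log2 change 0.24, standard error 0.0818, edgeR adjusted p = 0.0119). This call was lost without WT replicate 2 (adjusted p = 0.155), without KO1 replicate 1 (adjusted p = 0.115) and with DESeq2 (adjusted p = 0.0794). The log2 change was 0.11 in KO2 (adjusted p = 0.430) and -0.18 in KO3 (adjusted p = 0.114), which became -0.36 with an adjusted p of 0.00334 without KO3 replicate 2. Insr footprints were 38.8 and 41.0 CPM in WT cells, 44.5 and 41.7 for KO1, 42.7 and 44.5 for KO2, and 35.6 and 32.6 for KO3. None of the 3 footprint changes was called (log2 changes 0.13, 0.14 and -0.22, with edgeR adjusted p-values of 0.533, 0.568 and 0.244, and none by DESeq2).

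Igf1r encodes the receptor tyrosine kinase through which IGF1 and IGF2 signal, and it was close to absent from these counts. The single transcript in the table (ENSMUST00000005671.9), of a gene on the plus strand of chromosome 7 from 67952827 to 68233668, had from 0 to 2 counts in each of the 16 libraries and 14 counts in all. A difference between lines was not detectable at this depth.

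The adaptors diverged in KO1, where Irs1 fell and Irs2 rose, whereas both rose in KO2 and KO3. Irs1 (ENSMUST00000069799.2, minus strand of chromosome 1, from 82233101 to 82291416) had an RNA level of 210.1 and 203 CPM in WT cells, 105 and 104 for KO1, 342 and 383 for KO2, and 299.6 and 340.5 for KO3. KO2 and KO3 were above WT and KO1 was below it, with no overlap between any neighbouring lines. Irs1 RNA in KO1 was 0.507 times the WT level (log2 change -0.98, standard error 0.0616, edgeR adjusted p = 1.16e-19). It rose 1.76-fold in KO2 (log2 change 0.82, standard error 0.0606, adjusted p = 9.30e-10) and 1.56-fold in KO3 (log2 change 0.64, standard error 0.0572, adjusted p = 9.18e-17). Irs1 had the smallest adjusted p of the members in the test between clones (7.13e-23). Footprints followed, at 132 and 124 CPM in WT cells, 80.7 and 82.6 for KO1, 241 and 254 for KO2, and 186 and 182 for KO3. Their log2 change was -0.67 for KO1, 0.95 for KO2 and 0.51 for KO3, with standard errors from 0.0781 to 0.1001, and all 3 were called.

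Irs2 (ENSMUST00000040514.7, minus strand of chromosome 8, from 10984681 to 11008458) had an RNA level of 50.8 and 52.2 CPM in WT cells, 99.0 and 88.2 for KO1, 69.9 and 80.2 for KO2, and 65.0 and 67.9 for KO3. Each clone was above WT, with KO1 highest. Irs2 RNA rose 1.82-fold in KO1 (log2 change 0.86, standard error 0.0793, edgeR adjusted p = 1.75e-13), 1.47-fold in KO2 (log2 change 0.55, standard error 0.0891, adjusted p = 7.97e-05) and 1.30-fold in KO3 (log2 change 0.38, standard error 0.0849, adjusted p = 0.000132). The RNA level of Irs2 in CPM was below that of Irs1 in every library, and the 2 were closest in KO1. Irs2 footprints were 35.7 and 44.3 CPM in WT cells, 63.6 and 70.7 for KO1, 59.7 and 61.2 for KO2, and 42.8 and 44.8 for KO3. They rose in KO1 (log2 change 0.72, standard error 0.132) and in KO2 (log2 change 0.63, standard error 0.128, edgeR adjusted p = 0.000975), and the log2 change in KO3 was 0.15 (adjusted p = 0.446). The KO2 call was lost without WT replicate 1 (adjusted p = 0.0824) and with DESeq2 (adjusted p = 0.0790).

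Igfbp1, an IGF binding protein gene that liver cells transcribe when insulin is low, fell in every clone. The transcript used was ENSMUST00000020704.7, and the gene lies on the plus strand of chromosome 11 of GRCm38, from 7197782 to 7202546. The sequence before its start is shown because insulin is known to act on this gene through FoxO binding to an element with the letters CAAAACA, and because Igfbp1 and Irs2, another known FoxO target, moved in opposite directions here. The stretch is RefSeq's for GRCm38.p6, plus strand, chr11:7197537-7197781, with the motif in capitals:
Igfbp1: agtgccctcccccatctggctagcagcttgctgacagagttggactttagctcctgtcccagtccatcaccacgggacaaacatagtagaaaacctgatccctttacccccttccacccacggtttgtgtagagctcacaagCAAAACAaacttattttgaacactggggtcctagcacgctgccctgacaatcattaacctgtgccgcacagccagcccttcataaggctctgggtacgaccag

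The motif CAAAACA or its reverse complement TGTTTTG was searched on both strands in the 250 bases before each RefSeq start, after the promoters had been read. Promoter entries were found for 8 of the 10 members, all but Insr and Igf2bp1. The letters were found for 3 of these 8 members (Igfbp1, Irs1 and Irs2), beside 6.38% of 27025 genes and 5.56% of 32851 promoters. The other hits are shown with the bases around them on the minus strand, which is the strand of both genes. The motif is in capitals and the position is counted from the RefSeq start.
Irs1, position -111, chr1:82291532-82291561: gctccgtcacgTGTTTTGctcctctggagt
Irs1, position -32, chr1:82291453-82291482: cagccgccgctTGTTTTGgttggggctctc
Irs2, position -37, chr8:11008948-11008977: gagtcacgtgtTGTTTTGctcttagttcag
In Igfbp1 the motif starts at position -108 from the RefSeq start. The printed stretch leaves out the last 5 bases before that start, since they lie in an exon of the gene. A match of letters is not a binding site. The 3 members with the motif did not move alike, since Igfbp1 fell in all 3 clones, Irs2 rose in all 3, and Irs1 fell in KO1 and rose in KO2 and KO3.

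Igfbp1 RNA was at 168 and 161 CPM in WT cells, 40.9 and 38.4 for KO1, 96.2 and 109 for KO2, and 104 and 127 for KO3. All 6 libraries of the clones were below both WT libraries, with KO1 lowest and KO2 and KO3 overlapping. In KO1 its RNA was 0.240 times the WT level (log2 change -2.06, standard error 0.0746, edgeR adjusted p = 5.39e-30). In KO2 it was 0.628 times (log2 change -0.67, standard error 0.0707, adjusted p = 2.33e-07) and in KO3 0.706 times the WT level (log2 change -0.50, standard error 0.0682, adjusted p = 1.50e-09). Between KO2 and KO3 the log2 difference was -0.17 (adjusted p = 0.0712). Footprints were 458 and 396 CPM in WT cells, 102 and 92.9 for KO1, 276 and 259 for KO2, and 291 and 318 for KO3. Their log2 changes of -2.12, -0.67 and -0.50 were all called and lay within 0.10 of those of the RNA. Hepatocyte marker RNA did not move as 1 group in KO3, where Alb had 22180 and 22982 counts against 8618 and 8724 in WT cells and Apob had 583 and 554 against 983 and 1084, and its part in the Igfbp1 result was not tested.

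Igfbp4 encodes a binding protein that mostly restrains IGF action and is cleaved by the protease PAPPA. The transcript used (ENSMUST00000017637.12), of a gene on the plus strand of chromosome 11 from 99041244 to 99054392, had the most counts of all members. Its RNA level was 1429 and 1320.1 CPM in WT cells, 926 and 786 for KO1, 1189 and 1164 for KO2, and 1455 and 1343 for KO3. KO1 and KO2 were below WT and KO3 overlapped with WT. In KO1, Igfbp4 RNA was 0.622 times the WT level (log2 change -0.68, standard error 0.0474, edgeR adjusted p = 5.53e-18) and in KO2 0.860 times (log2 change -0.22, standard error 0.0467, adjusted p = 0.00154). In KO3 the log2 change was 0.03 (adjusted p = 0.541). Footprints were 1277 and 1184 CPM in WT cells, 821 and 744 for KO1, 1031 and 977 for KO2, and 1258 and 1142 for KO3, with log2 changes of -0.65 for KO1, -0.29 for KO2 and -0.04 for KO3, of which the first and the second were called. The KO2 calls were lost without WT replicate 1, with an adjusted p of 0.134 for RNA and 0.0994 for footprints.

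Igfbp2, a binding protein gene of fetal liver and of liver tumors, had RNA counts of 0 and 1 in WT cells, 2 and 0 in KO1, and 0 in the 4 libraries of KO2 and KO3 (ENSMUST00000047328.10, plus strand of chromosome 1, from 72824503 to 72852474). Its footprint counts were 9 and 8 in WT cells, 4 and 1 for KO1, 11 and 10 for KO2, and 35 and 23 for KO3. Footprints thus outnumbered RNA counts in all lines, although the RNA-seq libraries were deeper. The footprint counts were highest in KO3, and no translation efficiency was computed.

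Igf2bp1 encodes an oncofetal RNA-binding protein named for its binding to Igf2 mRNA. It had the smallest RNA change of the 8 tested members in KO1 and in KO2. Igf2bp1 (ENSMUST00000013559.2, minus strand of chromosome 11, from 95957163 to 96005940) had an RNA level of 152 and 161 CPM in WT cells, 171 and 167 for KO1, 147 and 149.98 for KO2, and 114 and 115 for KO3. Both KO3 libraries were below all others. In KO3, Igf2bp1 RNA was 0.739 times the WT level (log2 change -0.44, standard error 0.0652, edgeR adjusted p = 2.39e-08), and the log2 change was 0.11 in KO1 (adjusted p = 0.123) and -0.06 in KO2 (adjusted p = 0.539). Footprints were 142 and 157 CPM in WT cells, 160.4 and 145 for KO1, 139 and 149.9 for KO2, and 104 and 116 for KO3, and they fell in KO3 by 0.45 on the log2 scale (standard error 0.0876). Igf2 RNA was 6.78-fold higher than WT in KO2, where Igf2bp1 RNA had a log2 change of -0.06.

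The clones were also compared in pairs in the fit of the 8 RNA-seq libraries. KO1 and KO2 differed in 7 of 8 members (50.7% of all genes called), KO1 and KO3 in 7 of 8 (60.1%), and KO2 and KO3 in 6 of 8 (50.9%). Insr was the member not called between KO1 and KO2 (log2 difference 0.14, standard error 0.0932), and Igf2 the member not called between KO1 and KO3. Between KO2 and KO3, Irs2 (log2 difference 0.17, standard error 0.0840, edgeR adjusted p = 0.0878) and Igfbp1 were not called. KO1 and KO2 were made with the same pair of guides, and their RNA differed in as many members as that of KO1 and KO3.

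Translation efficiency (TE) is the footprint CPM of a gene divided by its RNA CPM in the same lysate. In WT cells the mean TE was 2.59 for Igfbp1, 0.958 for Igf2bp1, 0.895 for Igfbp4, 0.775 for Irs2, 0.701 for Insr, 0.620 for Irs1 and 0.393 for Igf2r, beside a median of 0.898 over 10116 genes. Igfbp1, the member with the highest TE, stood at percentile 97.9 and Igf2r at percentile 10.8. In this order only Irs2 and Insr overlapped between the replicates. Igfbp1 remained the member with the highest TE in every line, at 2.72 and 2.45 in WT cells, 2.49 and 2.42 for KO1, 2.87 and 2.37 for KO2, and 2.80 and 2.50 for KO3. The TE of each clone overlapped with that of WT, while Igfbp1 RNA fell in all 3 clones.

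No TE change was called by edgeR for the 7 members in any clone, where edgeR called 0.0942% of all genes for KO1, 0.0173% for KO2 and 0.104% for KO3. DESeq2's likelihood ratio test called 0 of the 7 as well. At an unadjusted edgeR p under 0.05, 1 of the 7 passed for KO1 and 0 for KO2 and KO3. The median size of the TE change of the members was 0.10 for KO1, 0.07 for KO2 and 0.07 for KO3 on the log2 scale, beside 0.17, 0.14 and 0.15 over all genes tested. The members had to pass the count floor in both assays, whereas the medians over all genes also take in genes with fewer counts. The 2 are thus not like for like. The gene past the unadjusted threshold was Irs1 in KO1. Its TE was 0.628 and 0.611 in WT cells, 0.766 and 0.791 for KO1, 0.705 and 0.664 for KO2, and 0.621 and 0.533 for KO3. Both KO1 values were above those of the other lines. The log2 TE change of Irs1 in KO1 was 0.32 (standard error 0.111, edgeR adjusted p = 0.492, and 0.136 with a term for each lysate). For Igf2r, with the fewest footprints, the standard errors of the TE change ran from 0.338 to 0.401, and the depth allows no statement on changes of that size.

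TE was also tested for a difference between the 3 clones, in a fit of all 16 libraries. None of the 7 members was called by edgeR, where 1.03% of all genes were, and 1 passed at an unadjusted p under 0.05. That member was Irs1, with an adjusted p of 0.0865. Since 1 lysate gave both libraries of a replicate, the fit was repeated with a term for the lysate. With this term the adjusted p for Irs1 was 0.00498, which is past the threshold. That fit called 3.42% of all genes. DESeq2 called 0 of the 7 members, with an adjusted p of 0.116 for Irs1.

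**Figure D4:**
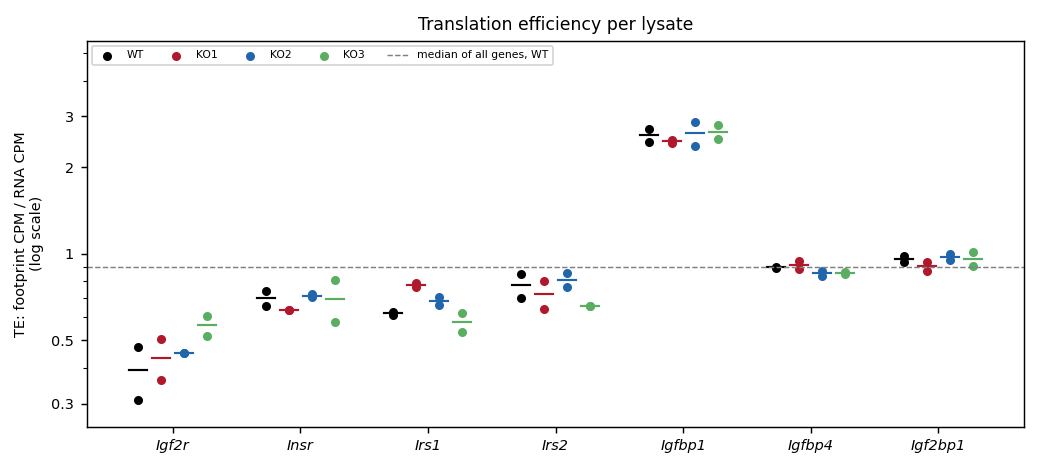
Translation efficiency, the footprint CPM divided by the RNA CPM of the same lysate, for the 7 members above the count floor in both assays, on a log scale. Points are lysates, short lines the means of 2 replicates, and the dashed line is the median of 10116 genes in WT cells (0.898). Igfbp1 lies above the line in every lysate and Igf2r below it, and for Irs1 both KO1 lysates lie above those of the other lines.

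The remaining genes of the pathway were taken from 4 lists with 91 genes, all of them in the table. These lists too were chosen with earlier results of these data known. In RNA, 41 of the 74 genes tested were called in KO1 (13 higher and 28 lower, 55.4%), 19 of 75 in KO2 (13 higher and 6 lower, 25.3%) and 38 of 75 in KO3 (12 higher and 26 lower, 50.7%). These shares were within 10 percentage points of those of all genes in each clone. DESeq2 called 12 in KO2, where it called 1405 of all genes and edgeR 2346. Leaving out WT replicate 2 lowered the calls there too, both of the lists and of all genes. The median log2 change of the lists was -0.07 for KO1, 0.01 for KO2 and -0.05 for KO3, beside 0.00 for each clone over all genes. Of footprints, 25 of 66 were called for KO1 (7 higher and 18 lower, 37.9%), 12 of 65 for KO2 (8 higher and 4 lower, 18.5%) and 24 of 65 for KO3 (10 higher and 14 lower, 36.9%). Over all genes tested, 26.9%, 11.7% and 30.6% were called in footprints. In TE, 0 genes were called by edgeR or DESeq2 in any clone, and 6, 3 and 3 genes had an unadjusted edgeR p under 0.05 in KO1, KO2 and KO3.

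Among the 17 other ligands, receptors and binding proteins, 5 of 9 tested genes were called in KO1 (1 higher and 4 lower), 5 of 10 in KO2 (4 higher and 1 lower) and 7 of 10 in KO3 (1 higher and 6 lower) in RNA. Of all genes tested, 46.7%, 20.4% and 45.4% were called in these clones, and with so few list genes the counts are descriptions. Insrr, an orphan receptor of the insulin receptor family, had 137 and 133 RNA counts in WT cells, 5 and 4 for KO1, 122 and 171 for KO2, and 69 and 46 for KO3. It fell by 4.84 on the log2 scale in KO1 (standard error 0.346), and in KO3 it fell by 1.36. Igfbp6, whose product prefers IGF2, rose in KO2 in RNA (log2 change 1.75, from 14 and 7 counts in WT cells to 36 and 36) and in footprints (log2 change 1.35). Footprints of Igfbp3, the main carrier of IGFs in blood, rose in KO3 (log2 change 0.90, standard error 0.0678), from 756 and 606 CPM in WT cells to 1285 and 1285. In KO1 they fell by 1.99 on the log2 scale and in KO2 they fell by 0.27, both called, and Igfbp3 RNA was called in the same directions in all 3 clones. Footprints of Htra1, a secreted protease that can cleave IGF binding proteins, fell in KO3 by 3.00 on the log2 scale, from 31 and 23 counts to 5 and 3. They rose in KO1 (log2 change 0.67) and in KO2 (log2 change 0.91), and Htra1 RNA likewise fell in KO3 and rose in the other two clones.

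Of the 17 genes for inhibitors of the pathway, 8 of 15 tested were called in RNA in KO1 (3 higher and 5 lower), 2 of 15 in KO2 (2 higher) and 7 of 15 in KO3 (3 higher and 4 lower). The shares over all genes were 46.7%, 20.4% and 45.4%. Enpp1, whose product binds the insulin receptor and hinders its activation, had 34 and 29 RNA counts in WT cells, 5 and 4 for KO1, 159 and 188 for KO2, and 6 and 4 for KO3. Its RNA rose in KO2 (log2 change 2.44, standard error 0.212), while it fell by 2.74 on the log2 scale in KO1 and fell by 2.75 in KO3. Its footprints rose in KO2 (log2 change 2.26), fell by 2.48 in KO1 and fell by 2.73 in KO3. As with Igf2, the KO2 libraries were above WT and those of KO1 and KO3 below it. Trib3, a pseudokinase that binds AKT and is also a known target of the ATF4 stress response, had 161 and 162 RNA counts in WT cells, 12 and 32 for KO1, 183 and 149 for KO2, and 410 and 475 for KO3. Trib3 RNA fell in KO1 by 2.83 on the log2 scale and rose in KO3 (log2 change 1.33), and its footprints fell by 2.14 in KO1 and rose in KO3 (log2 change 1.49). Footprints of Deptor, an inhibitor of mTOR, rose in KO1 (log2 change 0.77, standard error 0.245), as did its RNA (log2 change 0.62).

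In the downstream list of 39 genes, 20 of 38 tested were called in RNA in KO1 (6 higher and 14 lower), 10 of 39 in KO2 (6 higher and 4 lower) and 18 of 38 in KO3 (7 higher and 11 lower). Shares of all genes called in the 3 clones were 46.7%, 20.4% and 45.4%. Pik3r3, a regulatory subunit of phosphoinositide 3-kinase, rose in KO1 (log2 change 1.09, standard error 0.315), from 22 and 26 RNA counts in WT cells to 53 and 47. In KO2, RNA of the mTOR partner gene Mlst8 fell by 0.59 on the log2 scale (edgeR adjusted p = 0.0452) and that of Eif4ebp2, a repressor of cap-dependent initiation that mTOR inactivates, by 0.40 (edgeR adjusted p = 0.0108). In KO3, Eif4ebp2 RNA rose (log2 change 0.25) and so did Mlst8 footprints (log2 change 0.49, edgeR adjusted p = 0.0491). Footprints of Rptor, the scaffold of mTOR complex 1, fell by 0.70 in KO2 (standard error 0.172) and fell by 0.56 in KO1, and they rose in KO3 (log2 change 0.51), where Rptor RNA rose as well (log2 change 0.63). The falls of Mlst8 and Eif4ebp2 RNA in KO2 were smaller than the rises of Igf2, Igfbp6 and Enpp1 RNA in that clone. The RNA of the inhibitor genes Trib3 and Deptor was not called there.

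Of 18 insulin- and FoxO-regulated liver genes, 8 of 12 tested were called in RNA in KO1 (3 higher and 5 lower), 2 of 11 in KO2 (1 higher and 1 lower) and 6 of 12 in KO3 (1 higher and 5 lower). Beside these stand 46.7%, 20.4% and 45.4% of all genes. Slc2a2, the glucose transporter of hepatocytes, had 3 and 2 RNA counts in WT cells, 32 and 29 for KO1, 1 and 5 for KO2, and 11 and 11 for KO3. It rose in KO1 (log2 change 3.58, standard error 0.584) and in KO3 (log2 change 1.96, standard error 0.763, edgeR adjusted p = 0.0289). Ppargc1a, a coactivator of gluconeogenic genes, fell in KO3 in RNA by 2.81 on the log2 scale (standard error 0.325), from 72 and 90 counts in WT cells to 15 and 10, and its footprints fell by 3.71. Footprints of Pdk4, a kinase that restrains pyruvate dehydrogenase and a known FoxO target, rose in KO1 (log2 change 1.06, standard error 0.391, edgeR adjusted p = 0.0363), from 15 and 5 counts to 34 and 9. Pdk4 RNA rose in KO1 (log2 change 1.06) and in KO3 it fell by 2.02 on the log2 scale. Footprints of Fasn, the fatty acid synthase gene that insulin induces, were called lower in each clone, with log2 changes of -0.24 for KO1, -0.27 for KO2 and -0.24 for KO3.

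For each of the 8 members whose RNA differed between the 4 lines (75.3% of all genes were called in that test), the 2 genes with the most similar pattern were found by Pearson's r of log2 CPM over the 8 RNA-seq libraries, among at most 9004 genes with a mean of at least 100 counts. The points are 4 lines with 2 replicates each, so these r are descriptions. Nearest were Cpne8 and Cdc42ep1 to Igf2 (r = 0.988 for both), Selenoh (0.989) and Llgl2 (0.985) to Igf2r, and Hsdl2 (0.966) and Akap8 (0.958) to Insr. For the adaptors they were Zbtb20 (0.996) and Eif4g1 (0.995) for Irs1, and Ctdsp1 (0.981) and Rtkn (0.972) for Irs2. Gpi1 (0.992) and Psmd13 (0.985) were nearest to Igfbp1, Fxyd5 (0.992) and Rtn2 (0.989) to Igfbp4, and Prpf4 (0.996) and Rnf19b (0.995) to Igf2bp1. None of these 16 genes belongs to the members or the pathway lists.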

How the data were processed

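The 16 libraries were RNA-seq and Ribo-seq of WT Hepa1-6 cells and of the 3 clones. The authors trimmed adapters with fastp 0.21.0, removed noncoding RNA reads, aligned the rest to mm10 with STAR 2.7.0a and counted A-site positions on each annotated transcript's coding sequence without the first and last 5 codons; strand use in counting is not given in the sources used here. The deposited values are raw counts, and the table also gives, per the file headers, a transcript size, used as the number of codons counted. All 16 count columns were mapped to samples by the labels, and 0 columns of per-sample values were left unused. The labels name polyA RNA where the methods describe rRNA depletion, and which of these holds was not settled.

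The members and lists were chosen with earlier results of these data known. For each gene the transcript with the largest sum over the 16 libraries was used. Models were fitted by edgeR 4.0.16 under R 4.3.3 (quasi-likelihood, TMM within assay, filterByExpr, Benjamini-Hochberg over all genes tested): 4 libraries per clone for RNA or footprints, 8 for TE (interaction of line and assay), and all lines for differences between clones. Standard errors were the log2 change divided by the root of F. The fits were also run on simulated libraries, drawn independently with 1 fixed spread for all genes. That run had no lysate pairs, so it cannot show how the TE fits treat them. All members above the floor were named, and of the lists, per clone and assay, the 2 called genes that rose most and the 2 that fell most, at a mean of at least 10 counts. Alternatives were DESeq2 1.42.0, its size factors, TMM over both assays, other filters, all transcripts, the transcript with most RNA-seq counts, all lines in 1 fit, thinned libraries, an adjusted p under 0.1, blocks and left-out replicates. Start and end positions of the members and of Gm49394 were read from GENCODE M21 on GRCm38. They span all transcripts of the gene rather than the transcript used alone.

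By the methods, RNA for RNA-seq came from the lysate used for Ribo-seq. Libraries with the same line and number were taken as 1 lysate by that number. The deviations of these pairs from the line means had correlations over 5147 genes from 0.122 to 0.249. Between lines, those of RNA-seq ran from 0.0196 to 0.348, so these values do not settle the match. Replicates differed by more than sampling noise (chi-square per gene from 1.43 to 4.03). Single values of some genes of the lists are not reported here.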

Additional observations from a re-analysis of the deposited data

Results flagged for a closer look

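The changes against WT differed between the 3 clones for each of the following results, by edgeR's quasi-likelihood test of the difference between clones with adjustment over all genes tested. No cause was tested. For RNA the adjusted p-values were 4.61e-19 for Igf2, 7.13e-23 for Irs1, 2.28e-17 for Igfbp1, 5.68e-13 for Igfbp4, 5.54e-09 for Igf2r, 1.10e-08 for Igf2bp1, 1.25e-05 for Irs2 and 0.000646 for Insr. For footprints they were 2.99e-19 for Igfbp1, 5.15e-19 for Irs1, 1.11e-09 for Igfbp4, 1.44e-05 for Igf2bp1, 0.000157 for Irs2, 0.00178 for Igf2r and 0.0275 for Insr. In the RNA of all genes tested, 74% differed between clones, and in footprints 59.5%. The Insr results lost their call without KO3 replicate 1, with an adjusted p of 0.0820 for RNA and 0.0787 for footprints, and the Igf2r footprint result without KO1 replicate 1 (adjusted p = 0.431). With DESeq2, the footprint results of Igf2r (adjusted p = 0.148) and Insr (adjusted p = 0.262) also lost their call. For Insr footprints the adjusted p was 0.0728 without KO1 replicate 1 and 0.177 without KO3 replicate 2.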

How the results depend on the processing

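Counts of calls kept to within 1.5 times of the reported count in 266 of 274 comparisons with an alternative, and single results kept direction and side of the threshold in 1226 of 1294. The pathway lists gave 12 RNA calls in KO2 with DESeq2. Left-out replicates gave from 9 to 22 there, with 33 to 36 for KO1 and 27 to 32 for KO3, and from 2 to 4 members called for footprints in KO2. An adjusted p under 0.1 gave 1 member whose TE differed between clones. Both libraries of a lysate are paired by design: with a replicate block for the lysate, 1 member (Irs1) differed in TE between clones, 1 list gene was called in TE in KO1, and no other call on TE of a member changed. With that block, 3.42% of all genes differed in TE between clones and 0.711% were called in KO1. The labels tie the replicate number to no shared batch or day, and the correlation between lines in RNA was over 0.1 for 5 of 6 pairs of lines and 0.0196 for KO1 with KO2. Whether the number pairs lines was not settled. As a block it gave 1 such member and 1 such list gene as well, where 232 and 56 of all genes were called. The edgeR adjusted p with this block was 0.0203 for Irs1 TE between clones, and 0.0499 for Igf2bp1 RNA in KO1. The cause of these shifts was not tested.

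The results that changed sign were not called in the reported fit. With libraries thinned to the smallest total, the log2 change was -0.0736 for Igf2bp1 footprints in KO1, -0.00053 for Igfbp4 TE in KO1, -0.0536 for Igf2bp1 TE and 0.0241 for Igfbp4 TE in KO2, and 0.11 for Igf2bp1 TE, -0.17 for Igfbp1 TE and 0.15 for Insr TE in KO3. For Igfbp1 TE in KO2 it was -0.0018 with no filter, -0.0136 with all transcripts, -0.00029 with the number as a block and -0.0034 with all lines in 1 fit, and in KO3 it was -0.0073 with all transcripts and -0.0043 with all lines in 1 fit. For Igf2bp1 TE in KO3 it was 0.0011 with DESeq2 size factors, 0.0024 with at least 10 counts in every library and 0.00022 with DESeq2. Leaving out replicates gave ranges across 0 for RNA in KO3 of Igfbp4 (from -0.0226 to 0.0935) and Igf2r (from -0.422 to 0.00554), and for footprints of Igf2bp1 in KO1 (from -0.0367 to 0.122) and KO2 (from -0.121 to 0.0308) and of Igfbp4 (from -0.104 to 0.0168) and Irs2 (from -0.0239 to 0.292) in KO3. For TE in KO1 the ranges were from -0.04998 to 0.577 for Igf2r, from -0.12 to 0.0265 for Igfbp1, from -0.0265 to 0.0826 for Igfbp4 and from -0.283 to 0.0763 for Irs2. For TE in KO2 they were from -0.0121 to 0.0684 for Igf2bp1, from -0.105 to 0.508 for Igf2r, from -0.138 to 0.135 for Igfbp1, from -0.0604 to 0.117 for Insr and from -0.0763 to 0.197 for Irs2. For TE in KO3 they were from -0.0879 to 0.0896 for Igf2bp1, from -0.0612 to 0.092 for Igfbp1 and from -0.266 to 0.199 for Insr. KO1 replicate 2, the shallowest Ribo-seq library, limits all footprint and TE results of KO1.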
